A study of Drosophila melanogaster with 72 samples.

Results

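The libraries described here are the 6 made at day 22 from heads of Drosophila melanogaster in the neuronal model of full-length mutant huntingtin (mHTT). They were chosen by their library labels and age fields, and they are 6 of the 72 libraries in the series. The mHTT group (3 libraries) carried elav-GAL4/+ with UAS-HTTFLQ200/+, and the control group (3 libraries) carried elav-GAL4/+ alone. Flies of both groups were kept at 29 °C and taken 22 days after eclosion, and each library was made from 50 heads. The titles of the mHTT libraries name another day, but their age fields and library labels give day 22, and the growth protocol lists no other late age for this construct. The design collected early, middle and late phases of each model, and day 22 is the last age of the full-length one. The same 2 genotypes at days 18 and 20 (12 libraries) entered the fit, and the glial full-length model at day 22 (repo-GAL4, kept at 28 °C, 3 mHTT and 3 control libraries) was used for 1 comparison. The controls lacked the UAS insert, so the insert's site and background cannot be told apart from the effect of mHTT. The human transgene was not measured in the gene table, which holds fly genes only. The labels do not say whether replicates came from separate cultures, so p-values measure the spread between libraries, which may be technical in part.

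In Huntington's disease an expanded CAG repeat in the huntingtin gene lengthens a glutamine tract, and the protein damages neurons. The elav promoter is active in neurons, and GAL4 made under it switches on the UAS-linked human gene in the same cells. A whole head holds brain, the compound eyes with their photoreceptors, the antennae, fat body, muscle, glia and cuticle. A change in a head library can therefore lie in neurons or in any of these tissues. Fly neurons use acetylcholine, GABA and glutamate for fast signalling. Smaller sets of neurons release monoamines (dopamine, serotonin, octopamine, tyramine) or neuropeptides, and the genes for making, packaging and sensing these signals mark those sets.

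Values are the authors' normalised gene estimates, in which the upper quartile of each library was set to 1000. Changes are differences of log2(value + 1), mHTT minus control, and a gene was called at a Benjamini-Hochberg adjusted p under 0.05 in limma. This scale understates the change of genes at low values. The defining genes of the tissue were present: elav, a neuronal RNA-binding protein, was at 972, 1917 and 2110 in the mHTT libraries and at 1903, 2023 and 1741 in the controls. The photoreceptor opsin ninaE was among the highest values, at 340050, 717240 and 693030 against 848700, 824290 and 787780. mHTT replicate 1 was the lowest library for both genes.

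mHTT replicate 1 stood apart from the other libraries. Its 35 gut markers (trypsins, Jonah proteases, amylases, lysozymes) averaged 10.48 on the log2 scale, against 3.47 and 4.07 in mHTT replicates 2 and 3. Control replicates 1 and 3 also held gut transcripts, at 6.78 and 8.17, and control replicate 2 was at 3.29. The 31 ovary markers (chorion and vitelline membrane genes) averaged 9.68 in mHTT replicate 1 and 3.67 to 4.93 in the other 5 libraries. The summed gut markers were 0.99% of the summed value of mHTT replicate 1, 0.02% of the other mHTT libraries and 0.01% to 0.27% of the controls. No gut or ovary marker was at 0 in mHTT replicate 1. Neuron markers averaged 10.25 there and 11.16 to 11.31 in the other 5, and photoreceptor markers 14.88 against 15.91 to 16.05. The library label of mHTT replicate 1 begins with H57777, as does that of control replicate 2, and the other 4 begin with H57779. Values are from all libraries unless a sentence says that mHTT replicate 1 was left out. A change followed by "then" gives that second value. The part that gut, ovary or fewer neuronal transcripts had in any of them was not tested.

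**Figure D1:**
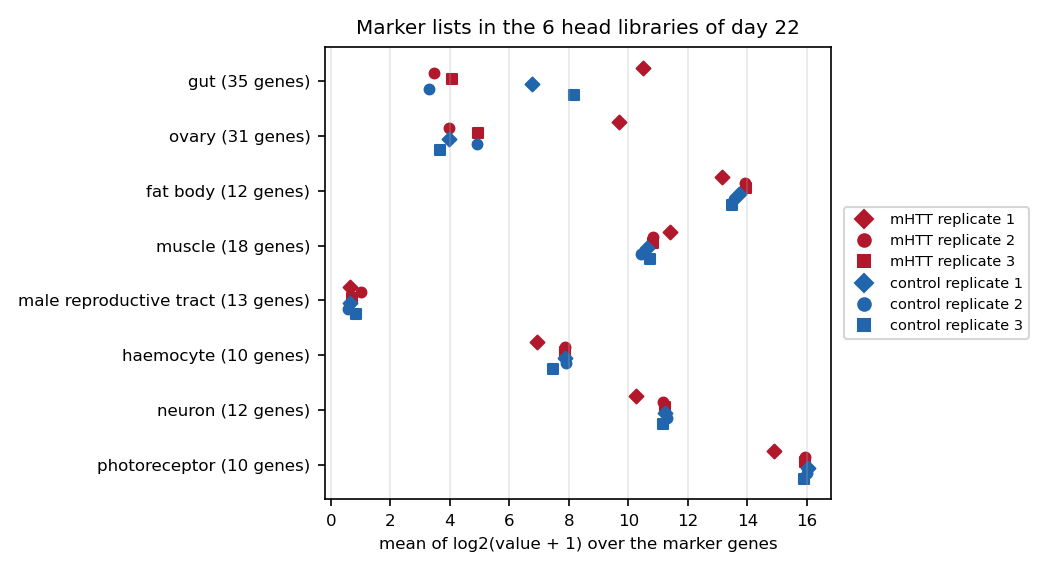
Mean log2(value + 1) of each marker list (y axis, with the number of genes) in the 3 mHTT (red) and 3 control (blue) libraries of day 22. mHTT replicate 1 is highest for gut (10.48) and ovary (9.68) and lowest for neuron (10.25) and photoreceptor (14.88) markers.

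Of 10538 genes tested, 324 rose (3.07%) and 482 fell (4.57%) in the mHTT heads, 7.65% in all. Without mHTT replicate 1, 754 rose (7.27%) and 690 fell (6.65%) of 10376 tested, or 13.9%. Both fits called 699 genes in the same direction, 284 up and 415 down. A further 107 genes were called with all libraries but not without that replicate. Most changes were moderate: 151 of the 699 had a change of at least 1 on the log2 scale in both fits. The median change over all genes was 0.00 with all libraries and 0.00 without replicate 1. The 3 mHTT values lay wholly above or below the 3 control values for 2299 tested genes (21.8%), and for 695 of the 699. The fit borrows its estimate of spread from days 18 and 20 as well, and uses 1 spread per gene for all ages. The spread was unequal: root mean square deviations from the group means were 0.20 to 0.26 in libraries of days 18 and 20. At day 22 they were 1.05 in mHTT replicate 1 and 0.37 to 0.61 in the other libraries. The SE and adjusted p given for day 22 therefore do not measure the spread of day 22 alone and may be too small. In the 6 libraries of day 22 alone no gene passed (0 at adjusted p under 0.05, 1001 at an unadjusted p under 0.05), and without mHTT replicate 1 those libraries gave 669. The count also moved with the controls: leaving out control replicates 1, 2 or 3 left 396, 446 and 424 genes. Leaving out mHTT replicate 2 or 3 gave 1261 and 1202. Of the 699 genes, 290 were called in each of the 6 fits that leave out 1 library of day 22. Losses among the gene groups below are given beside most groups.

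**Figure D2:**
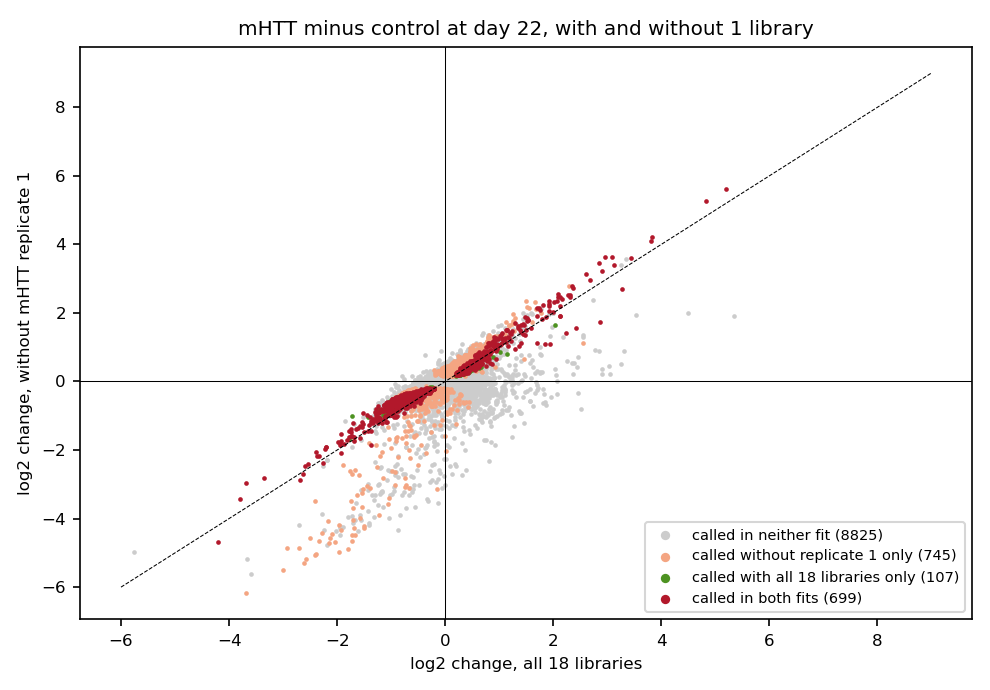
Log2 change at day 22 of 10376 genes with all 18 libraries (x axis) and without mHTT replicate 1 (y axis), coloured by the fit that called the gene. The 699 genes called in both fits lie along the diagonal, and 745 genes called only without replicate 1 include some far below it, such as the gut proteases lambdaTry, Jon99Fi and Jon99Fii (-4.43, -6.17 and -5.03 without replicate 1).

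The genes that rose most in both fits included an RNA of unknown function, several uncharacterised genes and a few enzymes. CR43264, a long non-coding RNA, was at 88.2, 138 and 177 in the mHTT libraries and at 22.8, 16.7 and 18.6 in the controls. It rose by 2.69 ± 0.26 (log2, SE; adjusted p = 3.05e-05), 6.45-fold, and by 2.96 without mHTT replicate 1. CG6142, an uncharacterised protein-coding gene, stood at 195, 292 and 312 against 61.8, 44.3 and 51.3, a rise of 2.30 ± 0.19, and of 2.51 without replicate 1. All mHTT libraries were above all controls for these and for the other 10 named genes that rose. CG4500, a relative of the acyl-CoA synthetase bubblegum that RefSeq names hll, read 2085, 2403 and 2244 with mHTT and 703.5, 683 and 372 without. Its rise was 1.99 ± 0.39, a 3.97-fold change, and 2.04 without replicate 1. Sardh (CG6385 in the table), the mitochondrial enzyme that turns sarcosine into glycine, was at 760, 1209 and 1169 against 395, 310 and 251. It rose by 1.71 ± 0.24, and by 1.92 without replicate 1. Cyp6t3, a cytochrome P450 that takes part in ecdysone synthesis, read 71.1, 185 and 161 against 40.7, 31.1 and 28.6, a rise of 1.92 ± 0.37, and of 2.34 without replicate 1. It overlaps CG8858 on the opposite strand, and whether counting used strand is not given in the sources used here.

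Amy-p, a digestive amylase, was far higher in mHTT replicate 1 than elsewhere, at 9583 against 1566 and 1570 in the other mHTT libraries. The controls were at 581, 455 and 580, so the rise of 2.42 ± 0.49 became 1.55 without replicate 1 (adjusted p = 0.000155). Its neighbour Amy-d is a near-identical copy and reads may be split between them. Amy-d read 5689, 1053 and 1126 against 726, 672 and 658 (change 1.46, adjusted p = 0.0625; 0.67 without replicate 1, adjusted p = 0.0346). The remaining named genes that rose were CG43085 (2.28), CG33301 (2.13), CG42876 (2.12), the U2 small nuclear RNA copy snRNA:U2:34ABa (2.09), CG9616 (1.92) and CG33460, a serine protease homologue (1.71). Without replicate 1 their changes were, in the same order, 2.53, 1.92, 2.46, 2.46, 2.21 and 2.13. The U2 copies are near-identical and their RNA lacks a poly(A) tail, which makes that value uncertain. CG33301 was at 816, 505 and 539 against 79.7, 135 and 240, and it was not called without control replicate 1 (adjusted p = 0.0718).

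Genes that fell most included odorant-binding, cuticle and defence genes. Obp99d, an odorant-binding protein, was at 30.4, 32.9 and 48.4 with mHTT and at 197, 251 and 209 in the controls. It fell by 2.55 on the log2 scale (SE 0.27, adjusted p = 7.63e-05), and the change was -2.42 without mHTT replicate 1. TwdlG, a cuticle protein of the Tweedle family, read 49.1, 84.8 and 82.1 against 315, 361 and 315, a change of -2.22 ± 0.16, and -1.97 without replicate 1. obst-A, a chitin-binding protein that organises cuticle, was at 53.2, 52.0 and 90.8 against 204, 240 and 232 (-1.82 ± 0.23, and -1.70 without replicate 1). Cht3 (now Cht10), a chitinase, was at 55.3, 54.2 and 64.8 against 158, 160 and 180 (-1.50 ± 0.14, and -1.47 without replicate 1). The 3 controls were close together for each of these cuticle and chitin genes, and no mHTT library reached them. Over the whole list of cuticle and Osiris genes the balance turned with mHTT replicate 1. With all libraries 3 rose and 6 fell of 37 tested, with a median change of -0.21, and without that replicate 6 rose and 4 fell, with a median of 0.19. Over all genes 3.07% rose and 4.57% fell with all libraries, and 7.27% and 6.65% without the replicate. The 3 that rose in both fits were Cpr62Bb (0.90, then 1.11), Cpr72Ec (0.82 with all libraries) and Cpr49Ae (0.75 in both). Cpr11A, Cpr47Ea and Edg91 rose without the replicate (2.79, 1.70 and 0.67). Cpr11A was at 4.57, 15.1 and 14.3 with mHTT against 1.31, 0 and 4.09, and Cpr47Ea at 9.56, 19.1 and 31.1 against 6.57, 7.01 and 6.81. For both, only mHTT libraries of day 22 reached 10, the value the filter asks for. The count of 6 that rose without the replicate is therefore not independent of the filter. With 1 library left out at a time, 5 of the 9 called with all libraries were called in every fit, and Cpr72Ec was lost without control replicate 2.

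The antifungal-type peptide gene dro5 (now Drsl5) was at 341, 350 and 409 with mHTT and at 1917, 1062 and 1169 in the controls, a change of -1.87 ± 0.31, and -1.82 without replicate 1. CG10251 is portabella (prt), a vesicular transporter related to Vmat that is found in the mushroom bodies. It read 39.9, 59.9 and 67.8 against 211, 211 and 235, and fell by 1.98 on the log2 scale (SE 0.18, adjusted p = 1.8e-05), with -1.76 without replicate 1. Cyp4d21, a P450 with sex-biased expression in the head fat body, was at 35.3, 65.3 and 103.5 against 260, 285 and 186 (-1.93 ± 0.34, and -1.53 without replicate 1). The other named genes that fell were CG14191 (-2.36), CG9377, a serine protease homologue (-1.79), CG8757, which overlaps an antisense RNA (-1.74), CG33993 or Egfrap (-1.74) and CG34454 (-1.42). Without replicate 1 their changes were -2.17, -1.45, -1.47, -1.59 and -1.43. CG9377 was not called without control replicate 1 or 2 (highest adjusted p = 0.0773). In each of the 12 rising and 12 falling genes the arms did not overlap, a condition of the rule that chose them.

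**Figure D3:**
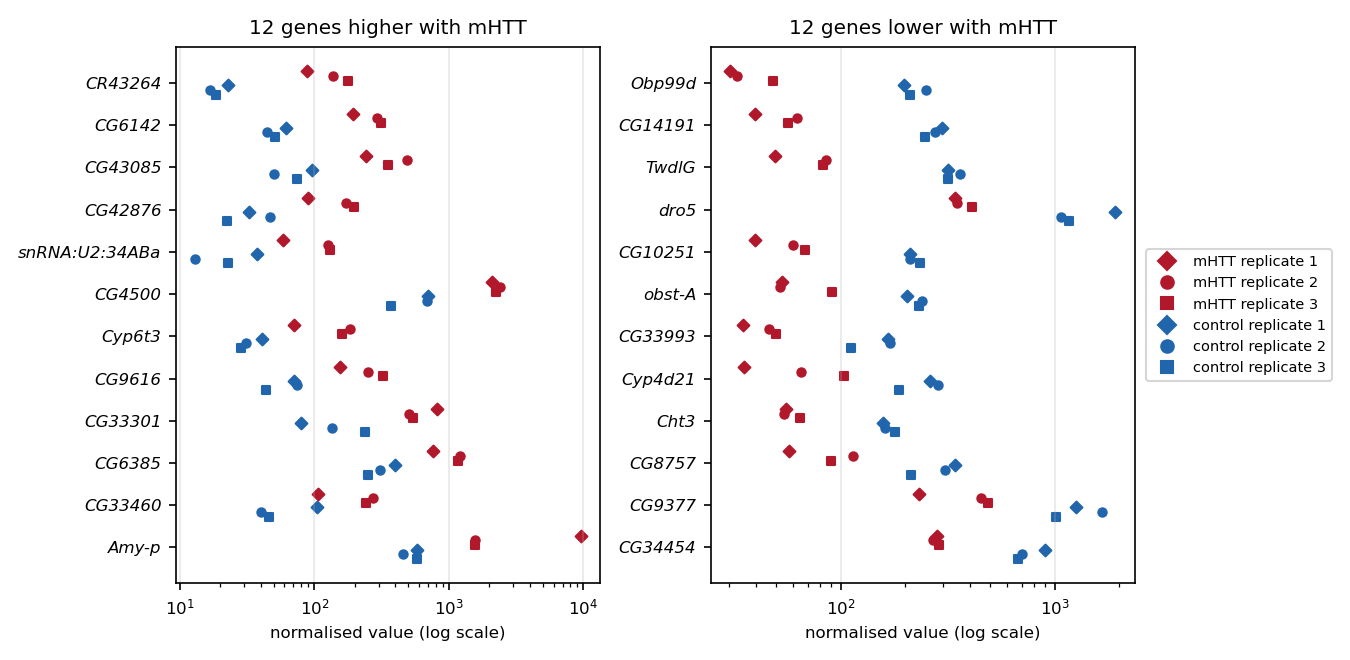
Normalised values (log axis) of the 12 rising and 12 falling named genes in the 3 mHTT (red) and 3 control (blue) libraries of day 22. The arms do not overlap, and mHTT replicate 1 (red diamond) is far above the other mHTT libraries for Amy-p (9583 against 1566 and 1570).

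Genes of monoamine signalling fell across synthesis, transport and reception. This list of 29 genes was drawn up after values of these data were seen. With all libraries 13 of the 29 fell and none rose, beside 4.57% of all genes lower and 3.07% higher. Without mHTT replicate 1 there were 15 lower and 1 higher, beside 6.65% and 7.27% of all genes. The median change of the list was -0.58 and then -0.29, beside a median of 0.00 over all genes. Of the 13, the 6 genes D2R, SerT, Tdc2, Trh, ebony and oa2 were called in each fit that left out 1 library. The other 7, among them ple, DAT and Vmat, lost the call when 1 or more of the control libraries were left out singly, and ple also without mHTT replicate 2 (adjusted p up to 0.126). The 12 neuron markers had medians of -0.39 and 0.00 in the same fits, with mHTT replicate 1 the lowest library, and whether less RNA per cell or fewer cells of a type lay behind any change cannot be told apart in head RNA.

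Among the synthetic enzymes, Tdc2, the neuronal tyrosine decarboxylase that makes tyramine for octopamine synthesis, was at 35.8, 70.2 and 61.2 with mHTT. Its controls were at 151, 149 and 165, and it fell by 1.51 on the log2 scale (SE 0.19, adjusted p = 0.000263), with -1.23 without replicate 1. Trh, the tryptophan hydroxylase of serotonin neurons, was at 132, 251 and 242 against 417, 503 and 438 (-1.17 ± 0.18, and -0.87 without replicate 1). ple, the tyrosine hydroxylase of dopamine synthesis, was at 598, 362 and 490 against 871, 770 and 760 (-0.75 ± 0.20). For ple the library that stands apart was the highest of the mHTT arm, and the change without it was -0.92. Tbh, which turns tyramine into octopamine, was at 194, 451 and 409 against 491, 601 and 503. It was not called with all libraries (-0.68, adjusted p = 0.0691) and fell without replicate 1 (-0.30, adjusted p = 0.037). Ddc, the shared decarboxylase of dopamine and serotonin synthesis, did not pass in either fit (-0.54, adjusted p = 0.101; -0.20, adjusted p = 0.0605).

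Transport genes followed. SerT, the serotonin reuptake transporter, read 205, 290 and 348 against 492, 543 and 530 (-0.92 ± 0.15, adjusted p = 0.00182). DAT, the dopamine transporter, was at 130, 291 and 285 against 389, 407 and 357 (-0.79 ± 0.22). Vmat, which loads monoamines into vesicles, was at 2458, 3701 and 3966 against 4854, 5255 and 4756 (-0.58 ± 0.13). In the 29-gene synaptic vesicle list Vmat was the 1 gene called with all libraries. Without replicate 1 the count of that list was 3 higher and 1 lower, beside 7.27% and 6.65% of all genes. In that fit unc-13, VGAT and Syt7 rose (0.52, 0.26 and 0.32), and Vmat fell. ebony (e), which couples monoamines to beta-alanine and is made in glia and cuticle, was at 114.8, 273 and 276 against 542, 515 and 464 (-1.30 ± 0.25). SerT, DAT, Vmat and ebony were also called without replicate 1, with changes of -0.71, -0.41, -0.37 and -0.88.

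Among the receptors, oa2 (Octbeta1R, an octopamine receptor) was at 69.4, 194 and 150 against 272, 276 and 295 (-1.14 ± 0.24, and -0.71 without replicate 1). The serotonin receptor 5-HT2B (CG42796) changed by -1.01 and -0.65 in the same fits. The dopamine receptors DopR2 and D2R changed by -0.97 and -0.91, then by -0.54 and -0.58. Oct-TyrR and Oamb, a tyramine and an octopamine receptor, changed by -0.60 and -0.54, then by -0.35 and -0.29. In the opposite direction Octbeta2R was called without replicate 1 (0.34, adjusted p = 0.0185) but not with it (0.18, adjusted p = 0.38).

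In the wider list of 39 neurotransmitter receptors, 8 fell and none rose with all libraries, and 9 fell and 3 rose without mHTT replicate 1. Over all genes 4.57% fell and 3.07% rose with all libraries, and 6.65% and 7.27% without the replicate. The 3 receptors that rose were thus near the background. The list median was -0.45 and then -0.08. Beyond the monoamine receptors, GluClalpha, a glutamate-gated chloride channel, was at 678, 1254 and 1483 against 1709, 1994 and 1750 (-0.75 ± 0.20, then -0.41). nAcRalpha-96Ab, an acetylcholine receptor subunit, was at 274, 647 and 543 against 749, 794 and 740 (-0.73, then -0.36). Both lost the call without any 1 of the 3 controls (adjusted p up to 0.114). Some other genes of fast transmission did not pass with all libraries. brp, the active zone scaffold, read 781, 1641 and 1520 against 1398, 1402 and 1296 (-0.13, adjusted p = 0.699; 0.21 without replicate 1, adjusted p = 0.0696). n-syb, the synaptic vesicle fusion protein, changed by -0.40 (adjusted p = 0.293) and Cha, the acetylcholine-making enzyme, by -0.49 (adjusted p = 0.187), and without replicate 1 by -0.01 and -0.09 (adjusted p = 0.959 and 0.388). The list of ion channels had 2 lower (8%) and none higher of 25 with all libraries, beside the same 4.57% and 3.07% of all genes. The 2 were eag (-0.63) and CG13836 (-0.67), and eag was lost without mHTT replicate 1 or any 1 control (adjusted p up to 0.128). The list without mHTT replicate 1 had 4 higher and 1 lower: the sodium channel para (0.57), the calcium channel Ca-alpha1D (0.41), Ih (0.28) and unc80 (CG18437, 0.73) rose, and CG13836 fell (-0.62).

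Neuropeptide genes moved in both directions once mHTT replicate 1 was left out. With all libraries 8 of 29 tested fell and none rose, with a median of -0.40. Without it 10 fell and 4 rose, with a median of -0.03. Over all genes 4.57% fell and 3.07% rose with all libraries, and 6.65% and 7.27% without the replicate. CNMa (CG13936), the precursor of a CNMamide peptide, was at 49.0, 78.6 and 93.8 with mHTT and at 246, 233 and 204 in the controls. It fell by 1.66 on the log2 scale (SE 0.22, adjusted p = 0.000421), and by 1.39 without replicate 1. Nplp4 was at 77.3, 74.2 and 97.9 against 160, 143 and 168 (-0.92 ± 0.20, then -0.87). Tk, the tachykinin precursor, was at 331, 633 and 651 against 935, 844 and 1050 (-0.87, then -0.55). Ast, the allatostatin A precursor that acts on feeding and sleep, was at 494, 604 and 647 against 825, 837 and 938 (-0.58, then -0.47). sNPF, Proct (proctolin), Fmrf and Nplp1 also fell, by 0.43 to 0.76 on the log2 scale. Proct was the 1 of the 8 that was lost without replicate 1 (-0.40, adjusted p = 0.06). Ast, CNMa and Nplp1 were called in each fit that left out 1 library. Tk and Fmrf were lost without control replicate 3, Nplp4 without control replicate 1 or 3, and sNPF and Proct without any 1 control (adjusted p up to 0.135).

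The 4 neuropeptide genes that rose without mHTT replicate 1 had values in that replicate far below every other library. Crz, the corazonin precursor, was at 602, 1389 and 1292 against 915, 1030 and 941. Its change was 0.10 with all libraries (adjusted p = 0.805) and 0.48 without replicate 1 (adjusted p = 0.000389). Dh44, a diuretic hormone gene, read 687, 1660 and 1701 against 1242, 1316 and 1271, with changes of -0.03 and 0.40. Dsk (drosulfakinin) and Dms (myosuppressin) went from -0.13 and -0.12 to 0.29 and 0.29. Pdf, the clock neuron peptide, was called in neither fit (-0.40, adjusted p = 0.293; -0.03, adjusted p = 0.917).

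**Figure D4:**
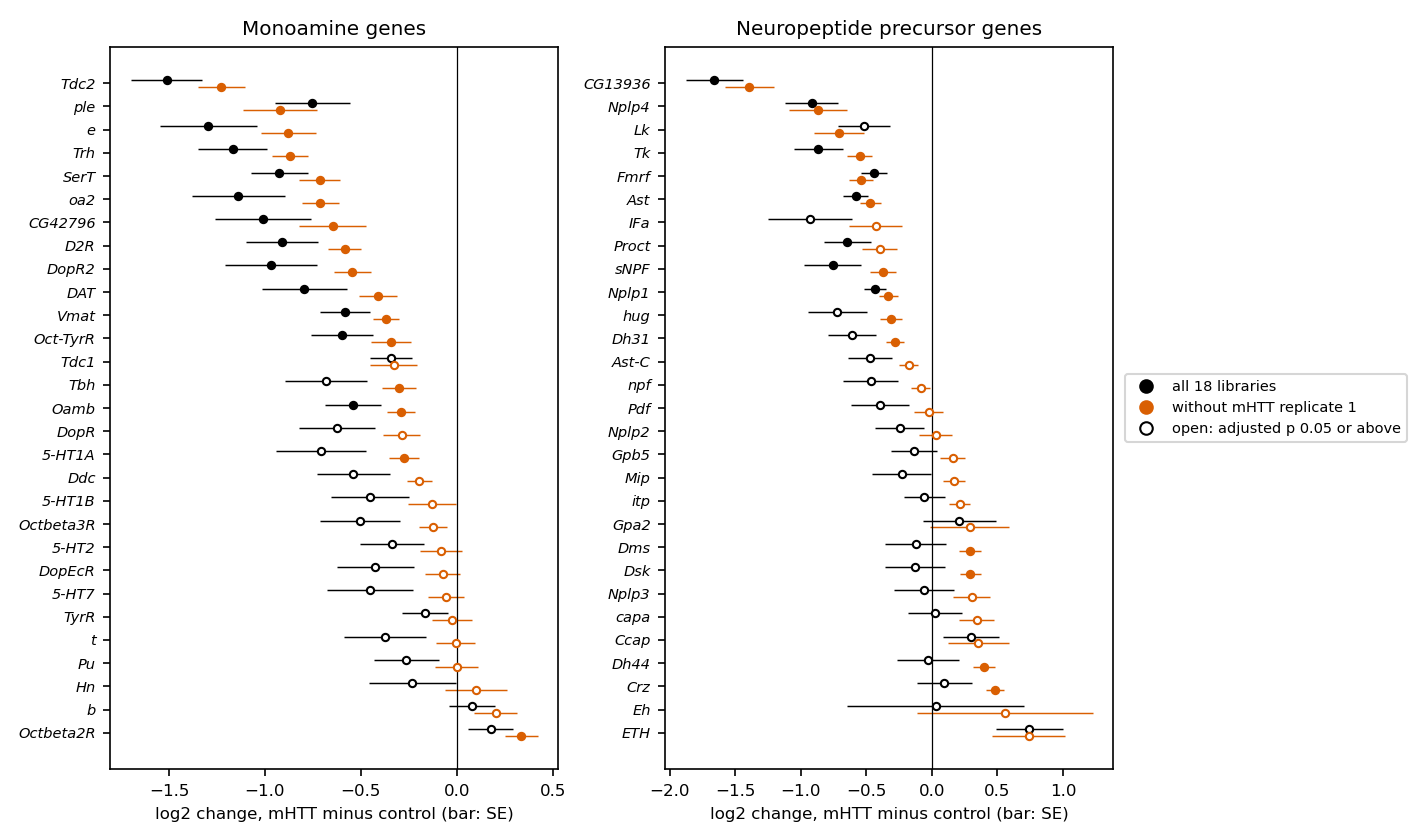
Log2 change at day 22 (x axis, bars SE) of the tested monoamine genes (left) and neuropeptide precursor genes (right), with all 18 libraries (black) and without mHTT replicate 1 (orange). Filled points passed an adjusted p under 0.05. Tdc2 (-1.51 and -1.23) and CG13936 (-1.66 and -1.39) are lowest in both fits.

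In the eye, an R7 and an R8 opsin fell, and another R8 opsin rose when mHTT replicate 1 was left out. Rh4, an ultraviolet opsin of the R7 cells, was at 18775, 37190 and 35685 with mHTT and at 59505, 61078 and 56711 in the controls. It fell by 1.02 on the log2 scale (SE 0.20, adjusted p = 0.0084), and by 0.70 without mHTT replicate 1. Rh6, the green opsin of R8, was at 6554, 12970 and 12951 against 17161, 16543 and 16235 (-0.69, then -0.36). Rh5, the blue opsin of R8, was at 6800, 14092 and 14030 against 9576, 9471 and 8698. It rose without replicate 1 (0.61 ± 0.09, adjusted p = 0.000491) and was not called with it (0.26, adjusted p = 0.459). Rh3, the other R7 opsin, passed in neither fit (-0.26 and 0.10). Of the 28 phototransduction genes tested, 3 fell with all libraries (Rh4, Rh6 and the sodium-calcium exchanger Calx), and without replicate 1 the same 3 fell and Rh5 rose. The shares of all genes that fell were 4.57% and 6.65% in the 2 fits, and 7.27% rose without the replicate. Rh6 and Calx lost the call without any 1 control (adjusted p up to 0.125), and Rh4 kept it in every such fit. ninaE, the opsin of the outer photoreceptors, changed by -0.57 (adjusted p = 0.23) and by -0.22 without replicate 1 (adjusted p = 0.543). The 10 photoreceptor markers had medians of -0.35 and 0.02.

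Chemosensory receptors rose and fell in similar numbers with all libraries, and more rose than fell without mHTT replicate 1. Of 181 odorant, gustatory and ionotropic receptors listed, 49 passed the filter, 6 rose and 7 fell. Without the replicate there were 11 higher and 5 lower. Over all genes 3.07% rose and 4.57% fell with all libraries, and 7.27% and 6.65% without the replicate. At day 18 the tested receptors had 8 higher and 2 lower, beside 4.22% and 4.97% of all genes. At day 20 there were 12 and 1, beside 2.41% and 1.73%. Or65c was listed at 0 in all 3 controls and at 19.5, 49.7 and 45.9 with mHTT. Or23a was likewise listed at 0 in the controls and at 7.1, 22.6 and 13.8 with mHTT. Or65c and Or23a were also called higher at days 18 and 20. Ir76b, a co-receptor of ionotropic receptors, was at 22.0, 54.6 and 41.3 against 88.9, 110 and 134 (-1.55, adjusted p = 0.0051; -1.19 without replicate 1). Ir25a, another co-receptor, was at 61.1, 62.2 and 89.2 against 129, 146 and 126 (-0.92, then -0.83). The sugar receptor genes Gr64b and Gr64c changed by -1.55 and -1.78, and Or63a by -1.24, and without replicate 1 by -1.33, -1.61 and -0.71. Genes of the same kind that rose were Gr85a (3.43), Ir92a (3.08), Or13a (1.82) and Gr43b (1.24), all at values under 60. Without replicate 1 they rose by 3.60, 3.62, 2.23 and 1.49. Or65c, Or23a, Gr85a and Ir92a were at 0 to 2.27 in the controls of day 22, and Gr43b was at 6.57 to 8.33. All are below the level the filter asks for. Among the libraries of day 22, only those with mHTT reached that level for these genes. The counts of receptors that rose, with and without replicate 1 and at days 18 and 20, are therefore not independent of the filter. Of those that fell, Gr64b was at 3.74 to 6.63 with mHTT, likewise below that level. Of 24 odorant-binding proteins 2 rose and 2 fell with all libraries, and 4 rose and 3 fell without replicate 1, beside the same shares of all genes. Obp99a was at 3143, 5270 and 4849 against 1275, 1856 and 1668 (1.45 ± 0.30, then 1.68), and Obp83cd rose by 0.91, then 1.29. Obp56d joined Obp99d among those that fell (-0.93, then -0.61). Obp56h and Obp83ef rose without replicate 1 (0.63 and 0.93), and Obp57a fell (-0.80). With 1 library left out at a time, 6 of the 13 receptors were called in every fit (Gr64c, Gr85a, Ir76b, Ir92a, Or23a and Or65c). Ir25a was lost without control replicate 2, Or13a without control replicate 1, Gr64b and Or63a without any 1 control, and Gr43b in 5 of the 6 fits (adjusted p up to 0.0955). Obp83cd and Obp56d were lost in 5 and in 2 fits (adjusted p up to 0.163).

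Several enzymes of purine and one-carbon metabolism rose at this age, as members of both lists also did in the glial model at day 22. Both lists (12 and 11 genes) were drawn up after values of these data were seen. In the purine list 4 of 12 tested rose and none fell, with a median change of 0.32. There were 5 higher and 1 lower without mHTT replicate 1. Over all genes 3.07% rose and 4.57% fell with all libraries, and 7.27% and 6.65% without the replicate. CG11089, the last enzyme of purine ring synthesis, was at 5634, 7373 and 6607 with mHTT and at 2684, 2598 and 2179 in the controls, a rise of 1.39 ± 0.21. ade3 (Gart), which carries out several early steps, was at 4919, 6572 and 7036 against 2684, 2769 and 2424 (1.22 ± 0.16, adjusted p = 0.000387). ade2 (Pfas), another early step, was at 4676, 5755 and 5626 against 3635, 3460 and 2713 (0.72). ry, the xanthine dehydrogenase of purine breakdown, was at 1488, 2044 and 2171 against 1322, 1313 and 1094 (0.60). Without replicate 1 the changes of CG11089, ade3, ade2 and ry were 1.49, 1.37, 0.81 and 0.77. All mHTT libraries were above all controls for these 4 genes, and ry lost its call without mHTT replicate 3 or control replicate 3 (adjusted p up to 0.0905). Uro, the urate oxidase of Malpighian tubules, was at 1228, 1.8 and 6.1 against 11.8, 67.5 and 627. It was not called with all libraries (-1.50, adjusted p = 0.623) and was lower without replicate 1 (-4.21, adjusted p = 0.028).

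In the one-carbon list 6 of 11 rose without mHTT replicate 1, beside 7.27% of all genes, and none fell in either fit. With all libraries 4 rose, beside 3.07% of all genes. Beside Sardh these were pug, which makes formyl-tetrahydrofolate for purine synthesis, at 11360, 15194 and 13525 against 7176, 7505 and 5936 (0.96 ± 0.15, then 1.07). Ahcy13, the adenosylhomocysteinase that clears the by-product of methylation, was at 4977, 4212 and 3822 against 3093, 2606 and 2656 (0.63 ± 0.12, then 0.53). Cbs (CG1753), which leads homocysteine to cysteine, rose by 0.53 (0.36 without replicate 1) and was lost without control replicate 1 or 3 (adjusted p up to 0.0944). The glycine cleavage genes CG3999 and CG6415 rose without replicate 1 (1.02 and 0.57). Shmt (CG3011), which passes a carbon from serine to folate, was called in neither fit (0.37 with all libraries, adjusted p = 0.195).

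In lipid metabolism, bmm, the brummer triglyceride lipase, was at 4515, 5827 and 5166 with mHTT and at 3584, 3902 and 3469 in the controls (0.50 ± 0.12, adjusted p = 0.0242). GRHR (AkhR), the receptor of the fat-mobilising adipokinetic hormone, was at 1095, 1916 and 2133 against 2639, 3468 and 2736 (-0.83, adjusted p = 0.0149). Hnf4, a nuclear receptor of lipid use, changed by -0.25. These were the 3 of 18 lipid genes called with all libraries, 1 higher and 2 lower, and their changes without mHTT replicate 1 were 0.59, -0.53 and -0.25. Without that replicate 5 rose and 2 fell: mdy, GLaz, Karl and Lpin rose as well (0.55, 0.34, 0.71 and 0.27). Over all genes 3.07% rose and 4.57% fell with all libraries, and 7.27% and 6.65% without the replicate. bmm lost its call when mHTT replicate 2 or control replicate 1 or 3 was left out (highest adjusted p = 0.0904). GRHR lost it without control replicate 2, and Hnf4 without mHTT replicate 3 or any 1 control (adjusted p up to 0.104). The 11 tested fat body markers had no member called with all libraries, and CG15828 (Apoltp) and Yp2 rose without replicate 1 (0.50 and 0.78).

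Detoxification genes split. Of 79 cytochrome P450 genes tested 8 rose and 7 fell, and without mHTT replicate 1 there were 13 and 7. The shares over all genes were 3.07% higher and 4.57% lower with all libraries, and 7.27% and 6.65% without the replicate, so the count of P450 genes lower in the second fit was near the background. Cyp6a2, which metabolises insecticides, was at 933, 1384 and 1400 against 484, 551 and 547 (1.21 ± 0.18, adjusted p = 0.000983; 1.40 without replicate 1). Cyp6g1, known for DDT resistance, was at 5859, 7586 and 7481 against 4123, 2938 and 2403 (1.17, adjusted p = 0.00257; 1.29 without replicate 1), and it overlaps Cyp6g2 on the other strand. Cyp9f3Psi was at 129, 175 and 218 against 419, 522 and 373 (-1.34, then -1.15). Cyp6a17, which acts in the temperature preference of flies, was at 292, 329 and 292 against 670, 718 and 610 (-1.13 ± 0.12). Of 19 glutathione transferases GstE1 and GstE8 rose (0.76 and 0.61) and GstD1, GstD3 and GstD9 fell (-0.47, -0.54 and -0.32) with all libraries. Leaving out mHTT replicate 1 gave 2 higher, GstE1 and GstE2 (0.81 and 0.88), and 5 lower, GstD1, GstD2, GstD3, GstD5 and GstD10 (-0.62, -1.31, -0.59, -1.42 and -0.76). Gclm, the modifier subunit of glutathione synthesis, fell from 3306, 3231 and 2857 in the controls to 2252, 2213 and 2275 with mHTT (-0.48 in both fits). Prx2540-1 (Prx6b), a peroxiredoxin with close paralogues, rose by 0.95, then 1.09. The 20 antioxidant genes had 1 higher and 3 lower in each fit. Gclm and Prx2540-1 kept the call whichever library was left out, and PHGPx and ple did not (adjusted p up to 0.107). Of the 15 P450 genes called, 9 were called in each fit that left out 1 library, among them the 4 given here. Of the 5 glutathione transferases 1 was (GstE1), and GstE8 and the 3 GstD genes were lost in 3 to 5 of the 6 fits (adjusted p up to 0.172).

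Few chaperone and stress genes were called. Hsp70Ba, a heat-inducible chaperone with near-identical copies, was at 98.0, 138 and 143 with mHTT and at 62.8, 29.3 and 48.0 in the controls (1.46 ± 0.40, adjusted p = 0.0368; 1.63 without replicate 1). DnaJ-1, the Hsp40 partner of Hsp70 that lessens polyglutamine toxicity in flies, was at 2768, 2667 and 2765 against 1975, 1943 and 2234 (0.42 ± 0.10, adjusted p = 0.0174; 0.41 without replicate 1). Those were the 2 of 14 Hsp70 family and co-chaperone genes called with all libraries, beside 3.07% of all genes higher. The controls were below the mHTT libraries in both. Hsp68 rose as well when mHTT replicate 1 was left out (0.48, adjusted p = 0.0049). Of 8 small heat shock genes, 17 genes of the unfolded protein response, 18 autophagy genes and 32 proteasome subunits none was called with all libraries. Without mHTT replicate 1 the autophagy genes Atg1, Atg2 and Atg101 (CG7053) rose, by 0.23, 0.29 and 0.49, and the small heat shock gene Hsp67Ba rose by 0.34. The proteasome subunit gene Pros26 fell (-0.22) in that fit, and no gene of the unfolded protein response was called. Of all genes, 7.27% rose and 6.65% fell in the same fit. In the JNK list puc, the feedback phosphatase of the pathway, was at 1322, 1632 and 1714 against 2247, 1979 and 1995 (-0.42), and Mmp1, a JNK-responsive protease, changed by -0.41. They were the 2 called of 19, beside 4.57% of all genes lower. Their changes were -0.31 and -0.32 without replicate 1, when egr, the TNF ligand of the pathway, rose (0.34). The JAK/STAT ligand upd2 (-1.68, values under 30) and the pathway's inhibitor Socs36E (-0.40) fell as well, with -1.61 and -0.31 without replicate 1. They were the 2 called of 9 Turandot and JAK/STAT genes tested, in each fit, beside 4.57% and then 6.65% of all genes lower. None of these 6 genes called with all libraries kept the call in every fit that left out 1 library: Hsp70Ba lost it in 4 of the 6 fits, puc without control replicate 1, and DnaJ-1, Mmp1, upd2 and Socs36E without either of 2 controls (adjusted p up to 0.139).

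Immune effectors gave few calls. The background for each list in this paragraph is 3.07% of all genes higher and 4.57% lower with all libraries. It is 7.27% and 6.65% without mHTT replicate 1. None of the 11 antimicrobial peptide genes of the Imd type passed in either fit, with a median change of 0.88 and, without mHTT replicate 1, of 1.27. Of the 15 Toll-type peptide genes, dro5 was the 1 called in either fit. TepI, a complement-like protein, was at 38.7, 85.3 and 102 against 32.0, 21.9 and 20.9 (1.47, adjusted p = 0.0122; 1.89 without replicate 1). nimB1, a secreted relative of phagocytic receptors that overlaps nimB2 on the other strand, rose by 0.90, then 1.20. TepIV fell by 0.47 on the log2 scale and was not called without replicate 1 (-0.33, adjusted p = 0.0876). Without mHTT replicate 1 nimB4, nimB5 and the scavenger receptors Sr-CI and santa-maria rose as well, by 0.32 to 0.94. The list of engulfment and scavenger receptors thus had 2 higher and 1 lower of 20 tested with all libraries. It had 6 higher and none lower without that replicate. The haemocyte markers had 1 lower of 9, the prophenoloxidase PPO2 (CG8193), at 255, 556 and 556 against 1123, 1086 and 927 (-1.28, then -0.91), and without replicate 1 the marker He rose (1.06). In the basement membrane list of 12 genes the laminin subunits wb and LanB2 rose (0.97 and 0.65, then 1.24 and 0.73). The collagen gene mp fell (-0.66, then -0.37), and nidogen (Ndg) rose without replicate 1 (0.84). That list had 2 higher and 1 lower with all libraries, and 3 higher and 1 lower without replicate 1. Of the genes in this paragraph called with all libraries, dro5, PPO2 and LanB2 kept the call whichever library was left out. TepI lost it without control replicate 3, wb without control replicate 1 or 3, mp without any 1 control, and nimB1 and TepIV in 4 and 5 of the 6 fits (adjusted p up to 0.127). Of 17 muscle markers tested, TpnC41C, sls and bt rose, by 0.49, 0.41 and 0.36, and none fell. Without replicate 1 their changes were 0.35, 0.33 and 0.37, and TpnC41C was not called (adjusted p = 0.0654). The summed muscle markers were 0.63% to 0.85% of the summed value with mHTT and 0.49% to 0.63% in the controls. Each of the 3 muscle genes lost the call without 2 or more of the controls singly (adjusted p up to 0.137).

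Housekeeping lists gave 1 call with all libraries and more without mHTT replicate 1. With all libraries there were none among 85 cytosolic ribosomal proteins, 35 oxidative phosphorylation genes, 14 glycolytic genes or 24 actin cytoskeleton genes, and 1 among 72 mitochondrial ribosomal proteins (mRpS31, -0.20), beside 7.65% of all genes. Without the replicate, when 13.9% of all genes were called, 4 of the 24 actin genes fell: tsr (-0.23), Arp14D (-0.28), Arp66B (-0.34) and Act5C (-0.40). The glycolytic genes Pgi and GlyP rose (0.41 and 0.35), mRpS31 stayed the 1 mitochondrial ribosomal gene called (-0.21), and the cytosolic ribosomal and oxidative phosphorylation lists again had none. In the insulin list of 18 genes 1 rose and 1 fell, and 3 rose and 1 fell without replicate 1. Over all genes 3.07% rose and 4.57% fell, and 7.27% and 6.65% without the replicate. ImpL2, a secreted inhibitor of insulin peptides, was at 862, 1084 and 817 with mHTT and at 1510, 1259 and 1413 in the controls (-0.60, adjusted p = 0.0218; -0.56 without replicate 1). Pi3K92E rose by 0.24, then 0.27. ImpL2, Pi3K92E and mRpS31 lost their calls in 3, 5 and 3 of the 6 fits that left out 1 library (adjusted p up to 0.194). Ilp2 was not called with all libraries and rose when replicate 1 was left out (0.77, adjusted p = 0.00136), as did Sdr (CG3837, 0.41). The glial marker repo did not pass (-0.29, adjusted p = 0.484; 0.13 without replicate 1, adjusted p = 0.439), and ebony was the 1 of 21 glial genes called in either fit. Yp1 (0.09), Yp2 (0.43) and Yp3 (0.20), which encode yolk proteins, the dosage compensation RNA roX1 (-0.54, adjusted p = 0.157), the eye colour gene w (-0.07) and fly htt (0.06) were not called with all libraries. Without mHTT replicate 1 fly htt (0.24, adjusted p = 0.0243) and Yp2 (0.78, adjusted p = 0.0231) rose, and Yp1, Yp3, roX1 and w were not called (0.42, 0.54, -0.25 and 0.16).

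Of the genes called with all libraries but not without mHTT replicate 1, the largest change was that of Abd-B, a Hox gene of the abdomen. It was at 113, 51.1 and 47.9 with mHTT and at 6.1, 13.6 and 39.9 in the controls (2.03, adjusted p = 0.0307; 1.64, adjusted p = 0.0584 without replicate 1). Abd-B was also called higher with mHTT at day 18 (4.96, adjusted p = 4.53e-05) and day 20 (3.46, adjusted p = 0.00165). Next were CG14572 (-1.77, then -1.68 with adjusted p = 0.0573) and the ionotropic receptor Ir94d (-1.72, then -1.02 with adjusted p = 0.0712), both under 30 in all libraries.

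Independent libraries of days 18 and 20, each with its own controls, show which changes of day 22 were present earlier. At day 18 there were 969 called genes (9.2% of those tested) and at day 20 there were 436 (4.14%). These counts also depend on mHTT replicate 1 of day 22, because the ages share 1 spread per gene. Without that library the fit called 2676 genes at day 18 and 1543 at day 20, of 10376 tested. Calls at days 18 and 20 given below are from the fit with all libraries. Of the 284 genes that rose at day 22 in both fits, 123 (43.3%) were called higher at day 18 and 120 (42.3%) at day 20. The background for those shares is 4.22% and 2.41% of all genes called higher. Of the 415 that fell, 113 (27.2%) were called lower at day 18 and 103 (24.8%) at day 20, beside 4.97% and 1.73% of all genes. Opposite calls numbered 6 and 3 at day 18 and 0 in either direction at day 20. Because the ages share 1 spread per gene, a gene with a small spread is more easily called at every age. The part this had in the shares above the background was not tested. Among the 24 named genes, 6 of 12 rising and 9 of 12 falling were called the same way at day 18, and 7 and 8 at day 20. TwdlG had changes of -2.09, -2.06 and -2.22 at days 18, 20 and 22. CR43264 had changes of 2.87, 2.13 and 2.69, and CG10251 of -1.72, -1.69 and -1.98. For none of these 3 was a difference between day 22 and the earlier days called. CG4500 was at 3.98 and 3.67 before 1.99 at day 22.

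The change at day 22 differed from the mean change of days 18 and 20 for 11 genes (0.104% of those tested), 7 with a positive (0.0664%) and 4 with a negative difference (0.038%), and all 11 were called again without mHTT replicate 1. Without that library 206 had a positive (1.99%) and 47 a negative difference (0.453%), 2.44% in all. limma called 0 genes when mHTT replicate 2, control replicate 2 or control replicate 3 was left out, with 2572, 1137 and 987 at an unadjusted p under 0.05, so the count rests on each of these libraries. Obp99d had the largest negative difference (-2.08 ± 0.33, adjusted p = 0.0385): its change was -0.10 at day 18, -0.84 at day 20 and -2.55 at day 22. The mHTT libraries of day 18 (87.9, 147 and 79.2) overlapped their controls (143, 102 and 85.8). CG13836, an old tag of the potassium channel gene Irk1 in RefSeq, changed by 0.47, 0.15 and -0.67 (difference -0.98). The clock repressor cwo changed by 0.18, 0.18 and -0.31 (difference -0.49), and the acyl-CoA synthetase gene Acsf2 (CG12512) by 0.88, 0.95 and -0.28 (difference -1.20). The fall of cwo at day 22 was not called without control replicate 1 or 2 (limma, adjusted p up to 0.0657).

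On the positive side, bmm was lower with mHTT at day 18 (-0.82, adjusted p = 0.000912), near 0 at day 20 (-0.02) and higher at day 22 (0.50), a difference of 0.91 ± 0.15. Ahcy13 went from -0.57 through 0.23 to 0.63 (difference 0.81). mino (CG5508), a glycerol-phosphate acyltransferase of lipid synthesis, went from -0.87 through -0.48 to 0.12 (0.80). Irp-1B, an iron regulatory protein, was lower at each age, least so at day 22 (-1.42, -0.37 and -0.31). CG34291 (-2.47, -1.09 and 0.60), CG7384 (-1.54, -0.43 and 0.53) and CG8908 (-0.27, 0.33 and 0.93) were the rest. For CG34291 the controls themselves fell with age, from between 1844 and 2090 at day 18 to between 540 and 1226 at day 22. In the purine list the differences of ade3 (1.06, adjusted p = 0.0656) and CG11089 (1.16, adjusted p = 0.111) missed the threshold with all libraries. Without replicate 1 both passed (1.21 and 1.27), as did 5 of 12 purine and 5 of 11 one-carbon genes. No monoamine gene was called for a difference between ages in either fit.

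**Figure D5:**
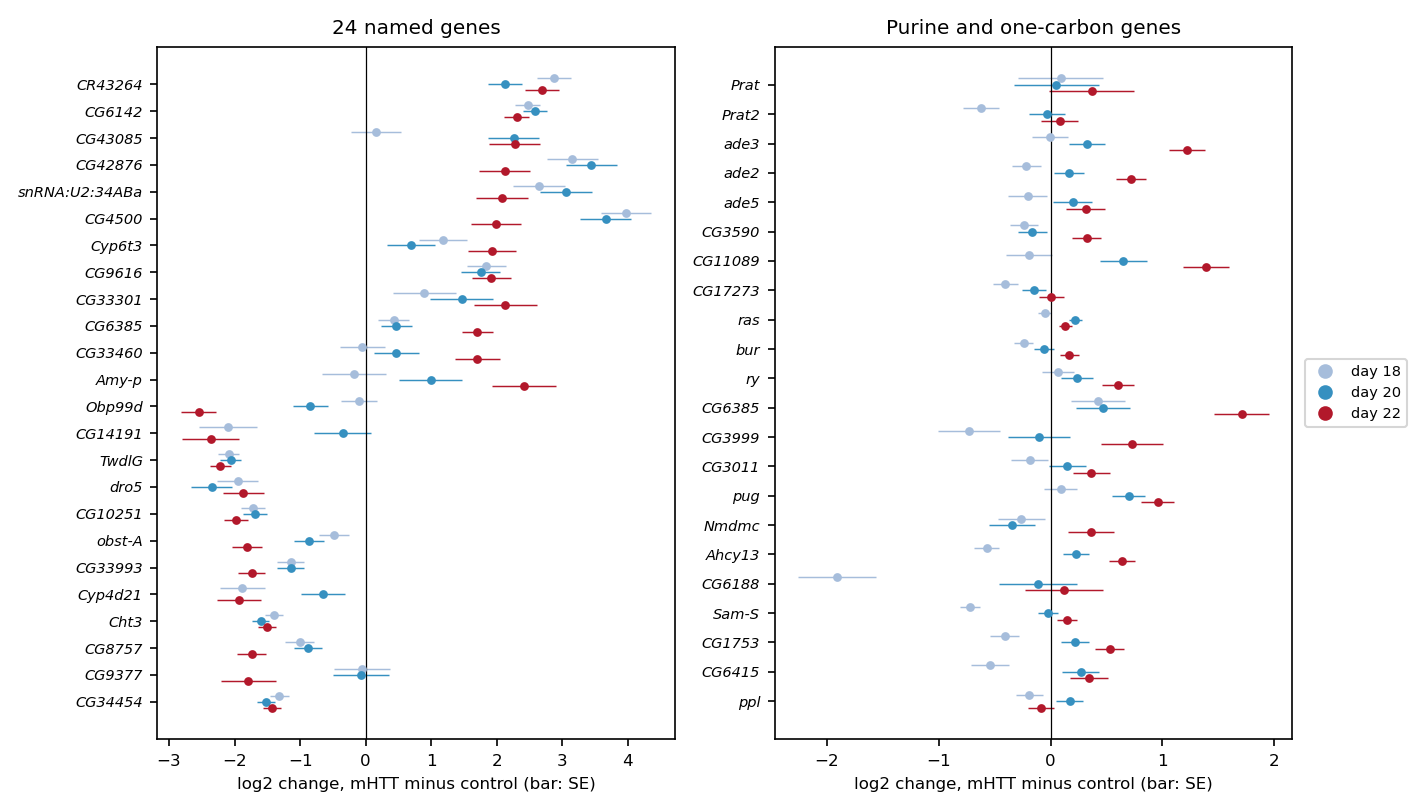
Log2 change, mHTT minus control (x axis, bars SE), at days 18, 20 and 22 for the 24 named genes (left) and for purine and one-carbon genes except Uro (right). TwdlG is at -2.09, -2.06 and -2.22, while ade3 is at 0.00, 0.33 and 1.22 and Ahcy13 at -0.57, 0.23 and 0.63.

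The glial model at the same age asks whether the cell that makes mHTT matters for the response in the head. Driver and temperature (29 and 28 °C) differ together, so they cannot be told apart. The change differed between the neuronal and the glial model for 1922 of 10821 genes (17.8%), and for 2650 (24.7%) without neuronal mHTT replicate 1. Of the 1922, 1671 were called in both fits. The Imd-type antimicrobial peptides were the clearest list: all 11 fell with glial mHTT, none passed with neuronal mHTT, and the difference was called for all 11. By comparison, 7.04% of all genes had a higher change in the neuronal model, and 25.8% of all genes were called in the glial one, 11.9% lower. Dpt, or diptericin, was at 3295, 4518 and 4207 with neuronal mHTT and at 1208, 1213 and 1970 in the neuronal controls (1.48, adjusted p = 0.102). In the glial model it was at 912, 1316 and 2778 against 32474, 68949 and 11666, so the glial controls were far above the other 3 groups. CecB, a cecropin, and edin (CG32185), a gene of the immune response, had differences of 5.66 and 5.25. CG6118 had a difference of 5.85, at values under 20 in the neuronal libraries.

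Genes with the opposite difference were far higher with glial mHTT than in the glial controls. Lsp1beta, a larval storage protein gene, was at 5966, 8847 and 11634 with neuronal mHTT and at 8714, 8554 and 7388 in its controls (0.05, adjusted p = 0.96). In the glial model it was at 11680, 11699 and 11729 against 99.5, 126 and 151, a difference between the models of -6.50 ± 0.60. tobi, a glucosidase gene that responds to brain insulin, was at 19522, 12893 and 14611 against 10040, 11445 and 6321 in the neuronal model. In the glial model it was at 42773, 34190 and 36476 against 566, 336 and 735, a rise of 6.18 on the log2 scale. For both Lsp1beta and tobi the glial controls were far below the neuronal controls. CG11313 was at most 3.33 in the neuronal libraries of day 22 and 2.64 in the glial controls. CG18853 was listed at 0 in the glial controls and in 5 of the 6 neuronal libraries of day 22, and at 9.34 in neuronal control replicate 3. With glial mHTT both genes were between 270 and 504. Without neuronal mHTT replicate 1 the differences between the models were 5.92 for Dpt, 6.22 for CecB, -6.25 for Lsp1beta and -5.57 for tobi. Of the 29 monoamine genes 8 fell and 2 rose with glial mHTT, beside the same 11.9% and 13.9% of all genes. For 7 of the 29 the change was lower in the neuronal than in the glial model, beside 10.7% of all genes. In the glial model 6 of 12 purine genes rose and 1 fell, with a median of 0.68. Of 11 one-carbon genes 8 rose there and none fell, with a median of 0.75. A rise in these 2 lists was thus not particular to the neuronal model.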

How the data were processed

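Poly(A)-selected RNA of fly heads was sequenced, and the deposited table holds 13557 genes in 72 libraries. Its values are a normalised signal: per the file headers and the submitters' processing notes, the authors' values are RSEM gene estimates, with each upper quartile at 1000 in the deposited table. CASAVA 1.8.2, Bowtie 0.12.0, RSEM 1.1.19 and build dm3 are named in those notes, without roles. The steps between low values put the 6 libraries at 38.2 to 43.6 M estimated reads, and 94.3% to 94.9% of low values were within 0.05 reads of a whole multiple. Because RSEM estimates need not be whole, no count test was run.

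The filter kept genes whose value reached 10 in 3 or more of the libraries fitted, and limma 3.58.1 (trended variance, R 4.3.3) was run on log2(value + 1), with 6 group means over 18 libraries, or 12 over 36 for the glial comparison. The test was also run on simulated data with 50 genes changed at each size. It recovered 40% of changes of 0.5, 78% of 1.0, 82% of 2.0 and 74% of -1.0, with 7 false calls. The simulated noise had 1 spread per gene for all libraries, unlike the data. The check therefore cannot show how the test behaves with the unequal spread of day 22. Named genes were called in both fits (with and without mHTT replicate 1), had arms that do not overlap with the higher arm averaging 100 or more, and were the 12 largest in each direction. Genes named for a list were those called, up to 4, and defining members. For differences, up to 4 genes in each direction are named, and all 11 of the age comparison. The members and lists were chosen with earlier results of these data known, and the further members of lists that the text gives were chosen after values were seen. Current symbols were taken from Ensembl and RefSeq tables of another build, by identifier for 12822 genes. No coordinates are given.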

Additional observations from a re-analysis of the deposited data

Results flagged for a closer look

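The following genes are listed because their change differed between ages or between models in a test of the difference itself. Against the mean of days 18 and 20, the change at day 22 was higher for CG34291 (2.38), CG7384 (1.51), bmm (0.91) and CG8908 (0.91). It was lower for Obp99d (-2.08), CG12512 (-1.20), CG13836 (-0.98) and cwo (-0.49). Against the glial model at day 22, the change in the neuronal model was higher for CG6118 (5.85), Dpt (5.79), CecB (5.66) and CG32185 (5.25). It was lower for CG18853 (-9.88), CG11313 (-7.05), Lsp1beta (-6.50) and tobi (-5.40). The values of CG18853 and CG11313 rest on groups with libraries at 0 or under 10, so their fitted sizes depend on the value of 1 added before taking logs.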

How the results depend on the processing

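The direction of the 24 named genes was the same under every alternative run, and all 24 were called under each change of added value, low-value filter and scaling. Calls were lost for 24 of 24 with only the 6 libraries of day 22, for 2 without control replicate 1, and for 1 each in 4 other fits. Numbers of genes changed at day 22 lay between 649 and 946 when the added value was 0.1 or 10, without a filter, with a mean of at least 100, under median-ratio or quantile scaling, with the label prefix as a covariate, or with all 72 libraries. Leaving out 1 library gave 396 to 1444 genes. Array weights, whose estimation stopped before it converged and which weighted mHTT replicate 1 at 0.0348, gave 2861. The 6 libraries of day 22 alone gave 0 (1001 at an unadjusted p under 0.05), and only libraries of day 22 with the prefix H57779 (2 against 2, without either H57777 library) gave 1502. For the difference from days 18 and 20 the count was 0 to 253 with 1 library left out, 2 with the prefix as covariate (limma), 69 with all 72 libraries and 860 with array weights. The neuronal and glial difference stayed within 1322 to 2650, except for 4815 with array weights.

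Same-numbered libraries of the groups share only a number. Correlations of their deviations at day 22 were -0.10, 0.42 and -0.56, so the numbers do not pair them. With the replicate number within day as a block, 395 genes changed at day 22, 0 differed from days 18 and 20 (limma, 1234 at an unadjusted p under 0.05) and 1709 differed between the models.

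Dh44, Dsk and Dms changed sign. Dh44 was at 0.40 without mHTT replicate 1 (also in the libraries of day 22 alone, without that replicate), 0.42 with array weights and 0.42 with prefix H57779 only. Dsk was at 0.29, 0.25 with array weights and 0.36 with that prefix. Dms was at 0.29, 0.28 and 0.33. The cause of these shifts was not tested. With another library left out all 3 were negative, down to -0.26 (Dh44, without mHTT replicate 3), -0.36 (Dsk) and -0.35 (Dms, both without mHTT replicate 2). With 3 libraries a group, small changes can be missed. Calls that the lists lost when 1 library was left out are given beside most of the lists.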
